A study of Mus musculus with 2 samples.

Results

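Pericytes and vascular smooth muscle cells, together called mural cells, were examined in dissociated mouse dorsal skin by single-cell RNA sequencing. Mural cells were taken from both libraries as cells with at least 3 UMIs (unique molecular identifiers, the counted RNA molecules) over Rgs5, Kcnj8, Abcc9, Higd1b, Notch3 and Myh11, at least 2 of these genes found, and no UMI of the fibroblast gene Pdgfra, the endothelial gene Pecam1 or the leukocyte gene Ptprc. The rule found 391 of 19578 kept cells, 240 of 11399 in the control library (Ctrl) and 151 of 8179 in the library of skin with atopic dermatitis-like inflammation (AD). Cells with at least 2 UMIs of Myh11, the heavy chain of smooth muscle myosin, are called Myh11 cells here, and the remaining mural cells are called low-Myh11 cells. The study asked how fibroblasts and other skin cells respond in this inflammation, using the mouse dermatitis model in which MC903 (calcipotriol, a vitamin D analogue) is applied to the skin.

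Both groups were female C57BL/6J mice of 7 weeks with depilated dorsal skin. Ctrl skin received the ethanol vehicle alone every day and AD skin received 4.5 nmol MC903 in ethanol every day, and both were taken on day 10. Each group was 1 library made with the 10x Genomics 3′ v3.1 kit, and the sources used here do not state how many mice each library pooled, so differences between the libraries could not be tested against the spread between animals and no p-value is given. The deposited Ctrl library held 12598 barcodes with 125184653 UMIs, and the AD library held 8778 barcodes with 76106062 UMIs. After the filter of 200 to 6000 genes and at most 10% mitochondrial UMIs, the median depth was 7813 UMIs per cell in Ctrl and 6330 in AD. The libraries shared 35 barcodes among all deposited cells and 0 among mural cells.

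Mural cells wrap the walls of blood vessels. Smooth muscle cells of arterioles and larger vessels contract through actin and smooth muscle myosin and set the bore of the vessel, while pericytes sit within the basement membrane of capillaries and venules and carry little of the contractile apparatus. Both kinds respond to endothelin, catecholamines and nitric oxide, are held in their mature state by Notch signalling from the endothelium, and in inflamed skin can release chemokines to leukocytes that leave the vessel.

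Mural cells were 2.11% of kept cells in Ctrl (95% Clopper-Pearson interval 1.85 to 2.39) and 1.85% in AD (1.57 to 2.16), intervals that cover counting error only. When cells with at least 2% of keratinocyte, fibroblast and adipocyte markers were left out, mural cells were 222 of 5657 cells in Ctrl (3.92%) and 149 of 7496 in AD (1.99%), since that left out many more cells of other types in Ctrl. Of the Ctrl mural cells, 206 were Myh11 cells (85.8%, 80.8 to 90.0) and 34 were low-Myh11 cells. Of the AD mural cells, 106 were Myh11 cells (70.2%, 62.2 to 77.4) and 45 were low-Myh11 cells. Depth was unequal, with a median of 5072.5 UMIs per Myh11 cell in Ctrl and 8109 in AD, and of 7756.5 and 5405 UMIs per low-Myh11 cell. With the rule applied after thinning each cell to 2000 UMIs, which leaves out shallower cells, Myh11 cells were 194 of 219 mural cells in Ctrl (88.6%, 83.6 to 92.5) and 82 of 132 in AD (62.1%, 53.3 to 70.4). Enzymatic digestion also sets how many vessel cells are recovered, and recovery and the number of cells in the skin cannot be told apart.

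The rule rests on few molecules in some cells. Exactly 3 UMIs over the 6 genes were held by 14 Ctrl and 2 AD members, all of them low-Myh11 cells, and 20 Ctrl and 13 AD cells with 2 UMIs lay just outside. Before the gates on Pdgfra, Pecam1 and Ptprc, 511 Ctrl and 245 AD cells passed on the 6 genes, and the gates removed 271 of them in Ctrl (53.0%) and 94 in AD (38.4%), mostly cells with a Pdgfra UMI (234 and 78). Close to the split, 16 Ctrl and 12 AD members held 1 Myh11 UMI, while 5 Ctrl and 10 AD members held 2.

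The label was checked against genes the rule did not use. In Myh11 cells, Acta2 (smooth muscle actin) stood at 5510 CPM (UMIs of the gene per 1000000 UMIs of the class) in Ctrl and 3631 in AD, against 266 and 17.0 CPM in fibroblasts (cells with at least 2 Pdgfra UMIs, 4333 in Ctrl and 4147 in AD). Their immune markers, of which the gate fixes Ptprc at 0, summed to 30.2 CPM in Ctrl and 24.6 CPM in AD. The label did not hold evenly over the class. The 26 AD Myh11 cells with 2 to 4 Myh11 UMIs had 447 CPM of Acta2 and 355 CPM of Tagln, against 6237 and 7735 CPM in the 46 AD cells with 20 or more, and carried 710 CPM of Pdgfrb, a gene of pericytes. In Ctrl, the 18 cells with 2 to 4 Myh11 UMIs had 690 CPM of Acta2. Smooth muscle genes thus marked the cells with more Myh11 in both libraries, while the cells just past the split had low levels of them. The 16 listed pericyte genes outside the rule summed to 2897 CPM in the AD low-Myh11 cells and 3090 CPM in the AD Myh11 cells. Their sum thus did not set these classes apart. In the AD low-Myh11 cells, Pdgfrb (receptor of the growth factor that recruits pericytes) was at 590 CPM, while Atp13a5 and Foxf2 of that list had no UMI. Acta2 was at 118 CPM there.

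The low-Myh11 cells of Ctrl went against the label. Krt10, a keratin of the upper epidermis, was at 12596 CPM in these 34 cells and at 8.85 CPM in the 45 AD cells. The 10 keratinocyte markers summed to 29400 CPM in Ctrl and 38.3 CPM in AD, and the 10 fibroblast markers to 16722 and 1997 CPM. In 8 of the 34 Ctrl cells keratinocyte markers made up at least 1% of the UMIs, in 7 fibroblast markers did, and 24 of the 34 held fewer than 10 UMIs over the rule genes. In AD, 3 of 45 low-Myh11 cells had at least 1% adipocyte markers, led by Cfd (adipsin) at 4304 CPM. These Ctrl cells held 25.3% of the UMIs of all Ctrl mural cells, so sums over all mural cells carry keratinocyte and fibroblast RNA in Ctrl. Low-Myh11 cells that held at least 10 rule UMIs are therefore described apart, 10 cells with 29615 UMIs in Ctrl and 31 cells with 242621 UMIs in AD, and are called pericyte-like. In them the 16 pericyte genes outside the rule summed to 5740 CPM in Ctrl and 3561 CPM in AD, against 3480 and 3090 CPM in Myh11 cells. The name is thus less borne out in AD. Values over all low-Myh11 cells, or over cells with 0 or 1 Myh11 UMI, include the Ctrl cells that go against the label. None of those 10 Ctrl cells had 1% of keratinocyte, fibroblast, adipocyte, immune or endothelial markers, and 1 of the 31 AD cells did, with adipocyte markers.

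**Figure D1:**
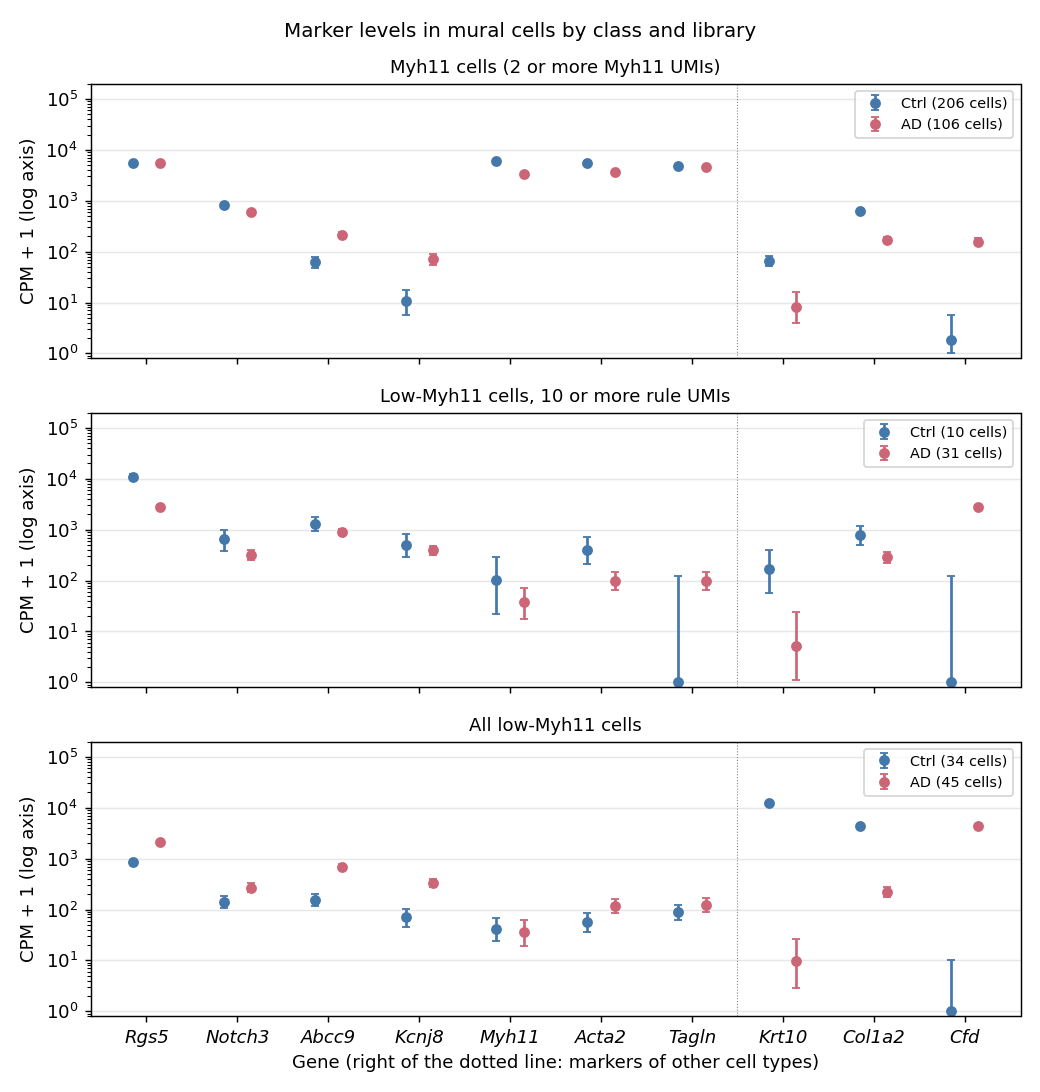
Level of marker genes (CPM + 1, log axis) in Myh11 cells, pericyte-like cells and all low-Myh11 cells of the Ctrl and AD libraries, 1 point per class and library with exact Poisson 95% intervals as bars. Myh11, Acta2 and Tagln stand above 1000 CPM in Myh11 cells of both libraries, and Krt10 stands at 12596 CPM in all low-Myh11 cells of Ctrl against 8.85 CPM in AD.

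Within the Myh11 cells themselves, the amount of Myh11 differed. A Ctrl cell held 2 UMIs at the lowest, 27 at the median and 269 at the highest, and an AD cell held 2, 14.5 and 224. Cells with at least 20 Myh11 UMIs, called Myh11-rich cells, were 134 of 206 Myh11 cells in Ctrl (65.0%, 58.1 to 71.5) and 46 of 106 in AD (43.4%, 33.8 to 53.4). Since Myh11 chose the cells, its lower level in AD Myh11 cells (3379 CPM against 6137 in Ctrl) is a description of the selection. Ratios below are for all Myh11 cells, and some of the lists and genes are given for Myh11-rich cells as well. Myh11-rich cells are more alike in this respect, although the AD cells among them are deeper (median 9204 UMIs against 5889.5).

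The gene that set AD mural cells most apart among the receptors was Ednrb, which encodes the endothelin B receptor (GRCm38 chr14:103814625-103844402, minus strand). In Ctrl, 186 of 206 Myh11 cells held no Ednrb UMI and the highest held 15. In AD, 64 of 106 held none and the highest held 248. Summed over Myh11 cells, Ednrb was at 44.8 CPM in Ctrl and 1171 in AD, a log2 ratio of 4.68 (AD over Ctrl with 1 CPM added to each, 95% counting interval 4.31 to 5.14), with 21.7% of the AD UMIs in 1 cell. The ratio was 2.87 (32.4 and 244 CPM) with the rule applied after each cell was thinned to 2000 UMIs, and 3.50 (32.7 and 381 CPM) in cells with at least 4 Myh11 UMIs. In pericyte-like cells the 10 Ctrl cells ranged from 0 to 3 UMIs with a median of 1, and the 31 AD cells ranged from 0 to 133 with a median of 31. The AD cells of this class were deeper, with a median of 6836 UMIs per cell against 3368.5 in Ctrl. Scaled to depth, the median Ednrb level per cell was 275 CPM in Ctrl and 5330 CPM in AD. Of the 24 low-Myh11 Ctrl cells that the limit of 10 rule UMIs, set after the data were seen, left out of that class, 2 held 16 and 25 Ednrb UMIs, within the range of the AD cells. Summed over pericyte-like cells, the level was 304 CPM in Ctrl, from 9 UMIs, and 5869 CPM in AD (log2 ratio 4.27, 3.34 to 5.40).

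Ednrb was not evenly spread over the AD mural cells but followed low Myh11. By Myh11 content, its AD level was 4493 CPM in cells with 0 or 1 Myh11 UMI, 3768 CPM with 2 to 4, 483 CPM with 5 to 19 and 87.4 CPM with 20 or more. At least 5 Ednrb UMIs were found in 31 of 45, 14 of 26, 9 of 34 and 2 of 46 AD cells in that order, against 2 of 34, 1 of 18, 0 of 54 and 0 of 134 Ctrl cells. Few Ctrl cells of the same low Myh11 content held 5 or more, but these groups were not alike between the libraries. The 34 Ctrl cells with 0 or 1 Myh11 UMI are those that went against the label, and 24 of them held fewer than 10 rule UMIs. The Ctrl cells with 2 to 4 Myh11 UMIs were shallower (median 2758 UMIs against 7764.5 in AD). In Myh11-rich cells the ratio was smaller, at 30.9 CPM in Ctrl and 87.4 in AD (log2 ratio 1.47, 0.76 to 2.26).

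**Figure D2:**
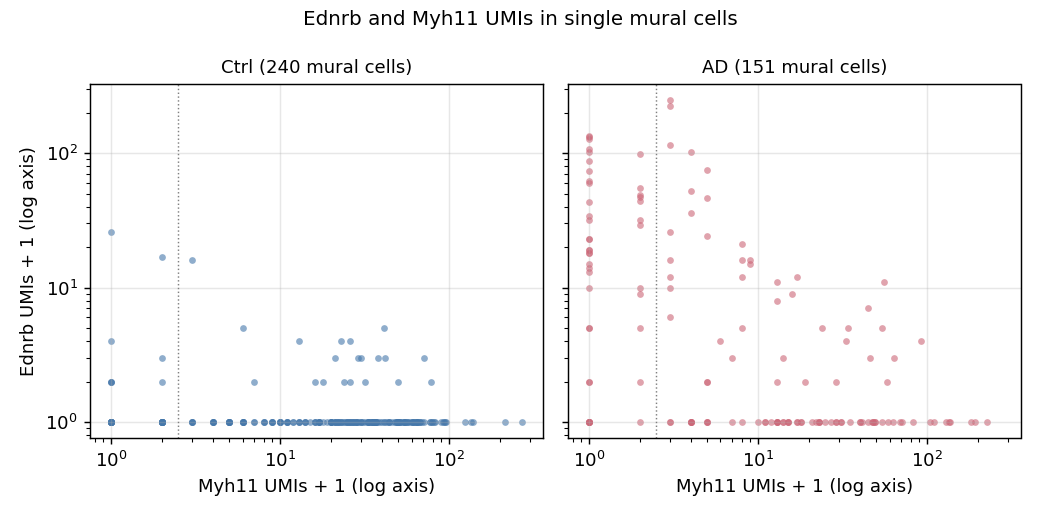
Ednrb UMIs + 1 (vertical log axis) against Myh11 UMIs + 1 (horizontal log axis), 1 point per mural cell, for Ctrl and AD. AD cells with 20 or more Ednrb UMIs all hold fewer than 20 Myh11 UMIs, up to 248 Ednrb UMIs in 1 cell, while no Ctrl cell exceeds 25.

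Ednrb did not differ in this direction in the other cell groups compared. Fibroblasts had 102 CPM in Ctrl and 34.9 CPM in AD, endothelial cells (292 and 288 cells) had 206 and 174 CPM, and all kept cells outside the mural class had 76.9 and 48.1 CPM. After each cell was thinned to 1000 UMIs, 3.48% of Ctrl and 24.8% of AD Myh11 cells held an Ednrb UMI. In immune cells, which should lack the gene and give the level of free RNA, the thinned shares were 3.65% and 0.874%, so the Ctrl share of Myh11 cells was at background and the AD share was above it. Unthinned, 9.71% of Ctrl and 39.6% of AD Myh11 cells held a UMI. Ednra, the endothelin A receptor that contracts vascular smooth muscle, was at 214 CPM in Ctrl and 240 in AD Myh11 cells (log2 ratio 0.17, -0.10 to 0.43). In pericyte-like cells Ednra was at 101 CPM in Ctrl, from 3 UMIs, and 503 CPM in AD.

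**Figure D3:**
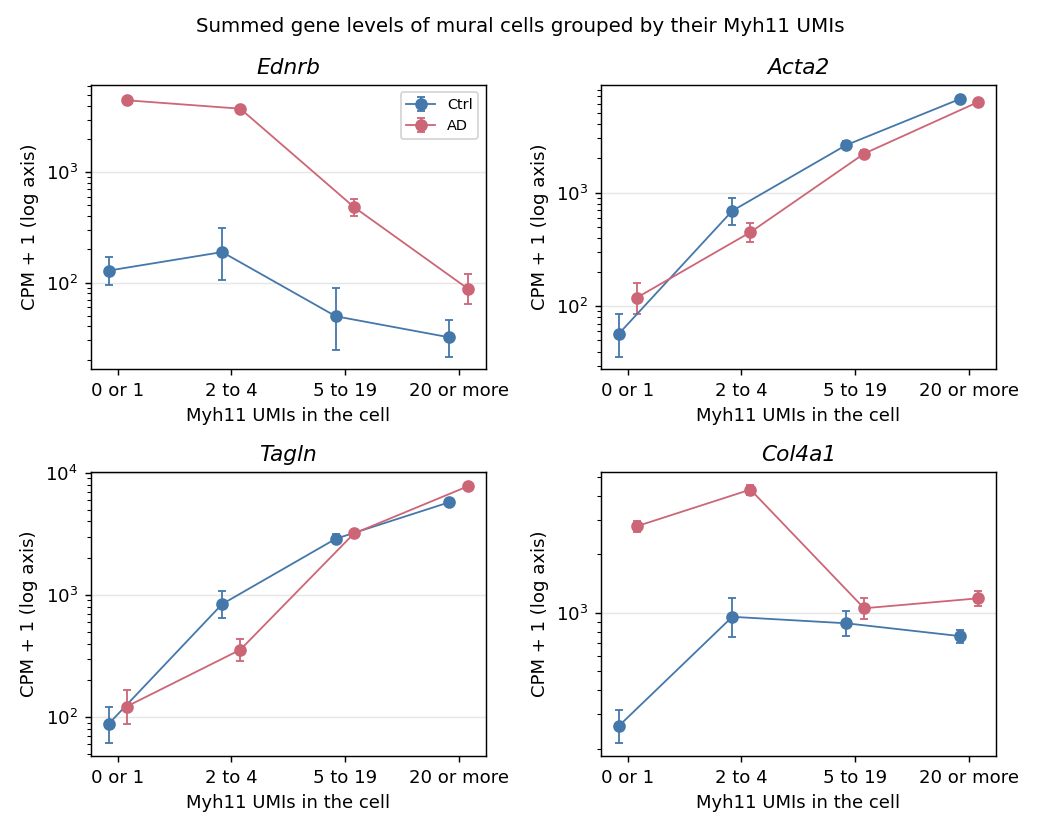
Level (CPM + 1, log axis, with exact Poisson 95% intervals) of Ednrb, Acta2, Tagln and Col4a1 in mural cells grouped by their Myh11 UMIs, for Ctrl and AD. Ednrb in AD stands at 4493, 3768, 483 and 87.4 CPM from the lowest to the highest Myh11 group, and Acta2 increases with Myh11 in both libraries.

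Among the other receptors and ion channels of vascular tone, 13 of 23 listed genes were tested in Myh11 cells (at least 50 CPM in either library). Of these, 1 was at least 2-fold higher in AD, Ednrb, and 3 were at least 2-fold lower. Over all 3785 genes tested in Myh11 cells, 4.81% were at least 2-fold higher and 6.5% at least 2-fold lower in AD, and the median log2 ratio was -0.04. The 3 lower genes were Adra1a, an alpha-1 adrenergic receptor that mediates contraction to noradrenaline (51.7 CPM in Ctrl, 8.21 in AD, log2 ratio -2.52), Kcna5, a voltage-gated potassium channel (65.5 and 17.5 CPM, -1.85), and Kcnmb1, the smooth muscle subunit of the calcium-activated potassium channel (54.3 and 19.5 CPM, -1.43). All 3 were also at least 2-fold lower in Myh11-rich cells, with log2 ratios of -1.76, -1.22 and -1.28. The levels of these 3 genes are low, and the Adra1a value in AD rests on 8 UMIs.

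The vasopressin receptor Avpr1a (233 CPM in Ctrl, 212 in AD), the prostacyclin receptor Ptgir (87.0 and 111), and Calcrl with Ramp1, which together form the receptor for the neuropeptide CGRP (121 and 161 for Calcrl, 151 and 144 for Ramp1), stayed within 2-fold. All 6 tested genes of the nitric oxide and cGMP route, which relaxes smooth muscle, were lower in AD by less than 2-fold, with a median log2 ratio of -0.46. Gucy1a1, a subunit of the nitric oxide receptor, was at 851 CPM in Ctrl and 520 in AD (-0.71, -0.87 to -0.55), and Pde3a, which breaks down cyclic nucleotides, was at 906 and 554 CPM (-0.71).

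The contractile genes were lower in AD Myh11 cells, some of them little and some of them strongly. Of 18 listed and tested genes, 17 had a log2 ratio below 0 and 6 were at least 2-fold lower (background 6.5%), none was at least 2-fold higher, and the median log2 ratio was -0.84 against -0.04 over all genes tested. Acta2 ran from 0 to 268 UMIs per Ctrl cell with a median of 20.5, and from 0 to 223 per AD cell with a median of 18, though the AD cells were deeper. Scaled to depth, the median was 3992 CPM per Ctrl cell and 2968 CPM per AD cell, and the highest were 18864 and 16526 CPM. The cells of the libraries thus overlapped widely. The log2 ratio of Acta2 was -0.60 (-0.66 to -0.54). Tagln (transgelin, an actin-binding protein) was at 4894 CPM in Ctrl and 4570 in AD (-0.10), and Mylk, the kinase that starts contraction by phosphorylating the myosin light chain, was at 3355 and 1803 CPM (-0.90, -0.98 to -0.81, and -0.49 in Myh11-rich cells).

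The 6 genes past 2-fold were Actg2, Cnn1, Ppp1r14a, Pln, Sorbs2 and Synpo2. Cnn1 (calponin, GRCm38 chr9:22099216-22109630, plus strand) was at 184 CPM in Ctrl and 44.1 in AD, a log2 ratio of -2.04 (-2.57 to -1.58). Ppp1r14a, an inhibitor of myosin phosphatase that sensitises the contractile apparatus to calcium, was at 452 and 125 CPM (-1.84, -2.15 to -1.56). Pln (phospholamban, which restrains calcium uptake into the sarcoplasmic reticulum) was at 283 and 85.2 CPM (-1.72). Actg2, an actin of visceral muscle, was at 131 and 19.5 CPM (-2.69), with 25.0% of its Ctrl UMIs in 1 cell. The remaining pair, Sorbs2 (-1.15) and Synpo2 (-1.03), encode proteins of the cytoskeleton and were under 2-fold in Myh11-rich cells (-0.56 and -0.67). Myocd, the coactivator that drives the contractile programme, was at 154 and 141 CPM (-0.13, -0.46 to 0.20, and 0.32 in Myh11-rich cells), and Csrp1 alone lay above 0 (0.17).

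The difference split the list among Myh11-rich cells. Acta2 was at 6633 CPM in Ctrl and 6237 in AD (log2 ratio -0.09), Myl9 had the same log2 ratio of -0.09, and Tagln was higher in AD by a log2 ratio of 0.43. Cnn1 (-1.37), Actg2 (-2.39), Pln (-1.07) and Ppp1r14a (-1.28) were still at least 2-fold lower, 4 of 18 against 7.45% of all 3771 genes tested in these cells, and none was higher, against 4.43%, and the list's median was -0.35. Acta2 and Myl9 were thus close between the libraries among the cells richest in Myh11, while the other 4 genes were lower there as well.

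The CArG box, the binding motif of serum response factor (CC, then 6 bases of A or T, then GG, identical on both strands), is the element through which myocardin acts on contractile genes. It was searched in promoters of 300 bases (250 before and 50 after the transcription start) from RefSeq on GRCm38. Of the 18 contractile genes 15 matched by symbol, with 19 promoters, and 1 gene, Myl9, held the motif, against 535 of all 32851 promoters (1.63%). The match is a description of the letters and no evidence of binding, and in the other genes the motif may lie outside the window. The 250 bases before the start of Myl9, the regulatory light chain of smooth muscle myosin (2333 CPM in Ctrl, 1471 in AD), are shown at GRCm38 chr2:156775214-156775463, plus strand, with the CArG box 161 bases before the start in capitals.
Myl9: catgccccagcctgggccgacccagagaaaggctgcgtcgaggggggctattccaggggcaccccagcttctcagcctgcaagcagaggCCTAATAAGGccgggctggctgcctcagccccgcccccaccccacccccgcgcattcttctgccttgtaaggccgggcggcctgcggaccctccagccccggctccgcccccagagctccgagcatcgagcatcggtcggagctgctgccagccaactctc

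**Figure D4:**
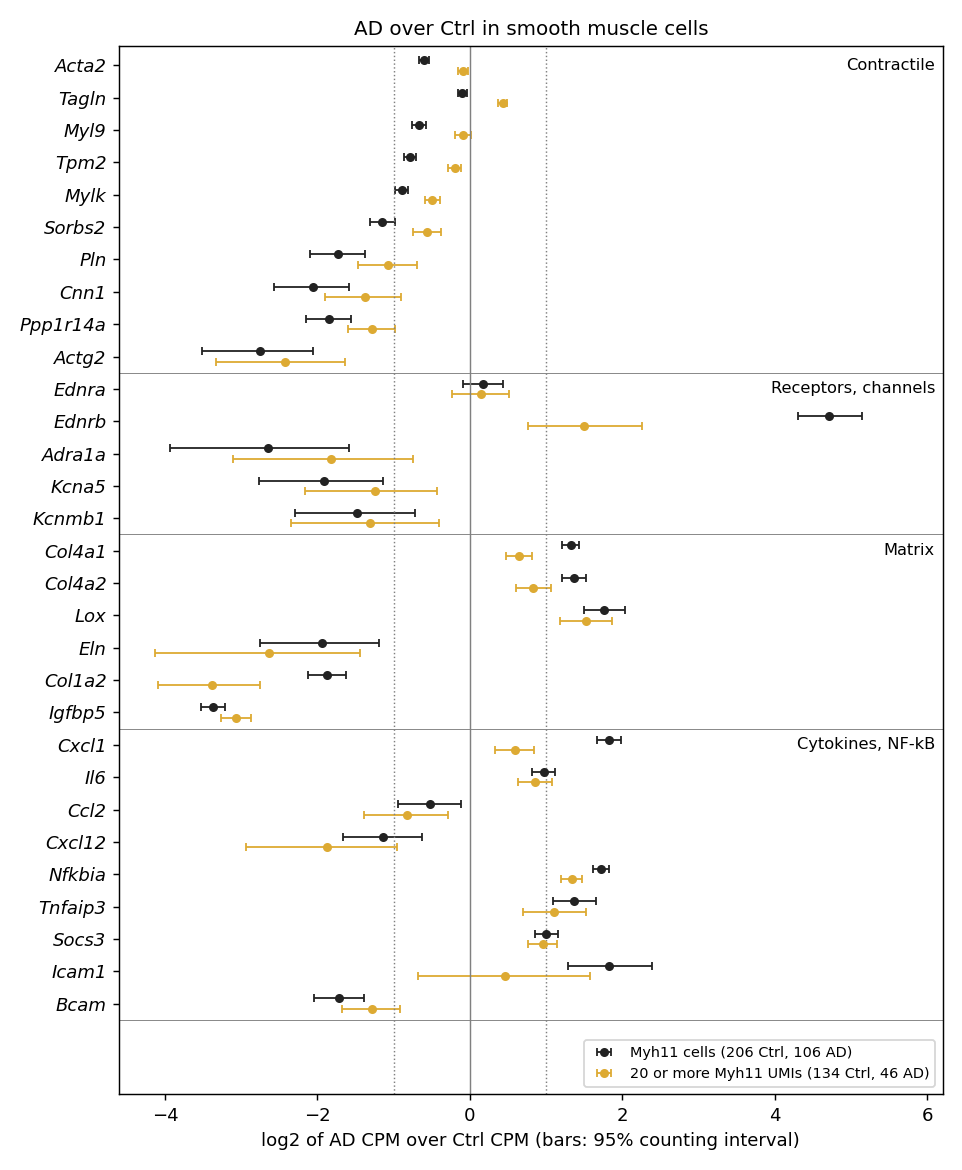
Log2 ratio of AD over Ctrl (horizontal axis, CPM without an added constant, 95% counting intervals as bars) of named genes in Myh11 cells and in Myh11-rich cells. In Myh11-rich cells Acta2 lies near 0 and Tagln at 0.43. Cnn1 and Ppp1r14a stay below -1 in both classes, and Nfkbia stays above 1 in both.

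Genes that mark pericytes, and the Notch pathway that keeps mural cells mature, mostly stayed within 2-fold in Myh11 cells. So did most genes tested. None of 11 tested pericyte genes outside the rule passed 2-fold, near the shares over all genes tested (4.81% higher and 6.5% lower). Pdgfrb was at 329 CPM in Ctrl and 405 in AD, and Mcam, an adhesion molecule of mural cells, at 407 and 350 CPM. Of 8 tested Notch pathway genes 1 was at least 2-fold higher (background 4.81%), the Notch target Heyl at 27.6 and 65.7 CPM (1.22, and 1.44 in Myh11-rich cells). The other targets Hes1 (309 and 294 CPM), Hey2 (74.1 and 64.7) and Nrarp (207 and 198) stayed within 2-fold. The motif GTGGGAA, to which the Notch effector RBPJ can bind, was searched on both strands in the promoters of 14 genes (the listed Notch genes, Notch3 and Rgs5). It was found in 1 of the 11 genes with a RefSeq promoter, Hey2, at 207 and 4 bases before the start, and in 6.38% of all promoters.

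Of 16 tested basement membrane genes, 3 were at least 2-fold higher in AD Myh11 cells (background 4.81%) and 1 was lower (background 6.5%), while in Myh11-rich cells none of 14 was higher (background 4.43%) and 2 were lower (background 7.45%). Col4a1 and Col4a2, the chains of the type IV collagen that mural cells and endothelium share, were higher together. Col4a1 (GRCm38 chr8:11198423-11312826, minus strand) was at 794 CPM in Ctrl and 1983 in AD (log2 ratio 1.32, 1.21 to 1.44), with 14.8% of the AD UMIs in 1 cell. Col4a2 was at 407 and 1046 CPM (1.36). The ratios were smaller in Myh11-rich cells, 0.64 for Col4a1 and 0.83 for Col4a2, and when the rule was applied after thinning each cell to 2000 UMIs, 0.71 and 0.68, all under 2-fold.

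As with Ednrb, the highest Col4a1 levels lay in AD cells of low Myh11. In AD, Col4a1 was at 2791 CPM in cells with 0 or 1 Myh11 UMI, 4312 CPM with 2 to 4, 1055 CPM with 5 to 19 and 1186 CPM with 20 or more. In Ctrl the 3 higher groups held 953, 883 and 758 CPM, and the lowest group, with the keratinocyte and fibroblast RNA described above, held 260 CPM. Pericyte-like cells had 2161 CPM in Ctrl and 3718 in AD (0.78). Fibroblasts (672 and 729 CPM) and endothelial cells (554 and 635 CPM) stayed within 2-fold. The laminin chain Lamb1 was at 22.4 and 62.6 CPM (1.44) in Myh11 cells but had a log2 ratio of -0.36 in Myh11-rich cells and -0.016 with the rule applied after thinning, and Agrn (agrin, a heparan sulfate proteoglycan) was lower at 73.2 and 24.6 CPM (-1.53, and -1.40 in Myh11-rich cells).

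In the interstitial matrix list, 2 of 16 tested genes were at least 2-fold higher (background 4.81%) and 3 were lower (background 6.5%) in Myh11 cells, with a median log2 ratio of 0.25. In Myh11-rich cells 1 of 13 was higher (background 4.43%) and 7 were lower (background 7.45%), with a median of -1.46. Lox, the oxidase that cross-links collagen and elastin, was at 134 CPM in Ctrl and 454 in AD (log2 ratio 1.76) and kept a ratio of 1.52 in Myh11-rich cells. Fibroblasts had 176 and 822 CPM of Lox. Timp1, an inhibitor of matrix metalloproteinases, was at 6.03 and 53.4 CPM (2.95), but at a ratio of 0.17 in Myh11-rich cells. Col1a2 (619 and 169 CPM, -1.86), Eln (elastin, 70.7 and 18.5 CPM, -1.88) and Col5a1 (56.0 and 25.7 CPM, -1.10) were lower, and in Myh11-rich cells their log2 ratios were -3.36, -2.54 and -2.48.

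Fibroblast markers moved with this matrix group. Their sum in Myh11 cells was 2648 CPM in Ctrl and 1279 CPM in AD, 4 of 7 tested were at least 2-fold lower (background 6.5%), and 3 of the 7 (Col1a1, Col1a2 and Col3a1) are in both lists. In Myh11-rich cells the sums were 2247 and 269 CPM, and all 7 tested were at least 2-fold lower (background 7.45%), with a median log2 ratio of -3.36. Over all Myh11 cells their most abundant gene in both libraries was Col3a1, at 820 and 461 CPM. At least 1% of the UMIs were fibroblast markers in 13 of 206 Ctrl and 1 of 106 AD Myh11 cells. In fibroblasts Col1a2 was at 14285 CPM in Ctrl and 1318 in AD. The part of fibroblast RNA in the lower collagen values of Myh11 cells was not tested.

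Igfbp5, which binds insulin-like growth factors and is secreted by smooth muscle, was among the 5 lowest genes of Myh11 cells (GRCm38 chr1:72857932-72874884, minus strand). The median was 19 UMIs per Ctrl Myh11 cell and 1 per AD Myh11 cell. Its level was 3688 CPM in Ctrl and 357 CPM in AD, a log2 ratio of -3.36 (-3.53 to -3.21), and in Myh11-rich cells 3950 and 472 CPM (-3.06). After thinning to 1000 UMIs, 87.6% of Ctrl and 29.5% of AD Myh11 cells held an Igfbp5 UMI, against 7.61% and 3.75% of immune cells. Without thinning the shares were 97.6% and 61.3% of Myh11 cells. It was lower by less in fibroblasts (1733 and 922 CPM) and in endothelial cells (1126 and 538 CPM), and the difference between these ratios was not tested.

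The other 4 lowest genes were scarce. Lum (69.8 CPM in Ctrl, no UMI in AD, at least 22.7-fold lower against a limit of 3 UMIs over the class) and Pi16 (72.4 and 1.03 CPM) are fibroblast markers, and Col14a1 (83.6 and 8.21 CPM) is a fibril-associated collagen. Sbspon was at 51.7 and 5.13 CPM. The 5 highest genes were Hp, Ccl4, Cxcl2, Ednrb and Lrg1, with between 21.7% (Ednrb) and 57.9% (Hp) of the AD UMIs of each in 1 cell. The haptoglobin gene Hp had no UMI in Ctrl and 1338 CPM in AD (at least 517-fold higher), but in Myh11-rich cells it had 7 UMIs in AD, or 15.3 CPM. The chemokine gene Ccl4 was at 9.48 and 806 CPM, with 57.5% in 1 AD cell and a log2 ratio of 0.48 without the cells of highest doublet scores, and Lrg1 was at 3.45 and 78.0 CPM, with 36.8% in 1 AD cell.

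Chemokine and cytokine genes leaned higher, with 4 of 10 tested at least 2-fold higher in AD Myh11 cells (background 4.81%) and 1 lower (background 6.5%). In Myh11-rich cells 1 of 8 was higher and 1 lower, near the shares over all genes (4.43% and 7.45%). Cxcl1, a chemokine that draws neutrophils, was found in 89 of 206 Ctrl cells at up to 32 UMIs, and in 64 of 106 AD cells at up to 252 UMIs. Its level was 377 CPM in Ctrl and 1331 CPM in AD (log2 ratio 1.82, 1.66 to 1.98), with 19.4% in 1 AD cell. The thinned shares of Cxcl1 were 19.9% of Ctrl and 38.1% of AD Myh11 cells, against 5.63% and 11.6% of immune cells, and fibroblasts had 373 and 1663 CPM. In Myh11-rich cells its log2 ratio was 0.58, and with the rule applied after thinning it was 0.89.

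Cxcl2, a related neutrophil chemokine, was at 5.17 CPM in Ctrl and 239 in AD (5.28), with 26.2% in 1 AD cell, and at a log2 ratio of 4.21 in Myh11-rich cells. Kept cells outside the mural class were higher, at 149 CPM in Ctrl and 689 in AD. With free RNA subtracted, the Myh11 cells were at 0 and 78.1 CPM, and their thinned shares were 0.995% and 6.67%, against 13.6% and 29.8% of immune cells, which express the gene themselves. Ccl11, the eosinophil chemokine eotaxin, was at 31.0 and 164 CPM (2.37), but lower in AD among Myh11-rich cells (-1.47). Cxcl10, an interferon-induced chemokine, was at 18.96 and 121 CPM (2.61) with 76.3% in 1 AD cell, and also lower among Myh11-rich cells (-1.22) and with the rule applied after thinning (-1.39). Of the 8 genes of this list tested in Myh11-rich cells only 1 was at least 2-fold lower. At least 1 of the ratios of Ccl11 and Cxcl10 there thus lies under the level tested. Over all Myh11 cells Cxcl12, which retains leukocytes and progenitors in tissue, was the gene at least 2-fold lower, at 102 and 46.2 CPM (-1.12). Il6 was at 489 and 955 CPM (0.96, 0.81 to 1.12), just under 2-fold, and Ccl2, a monocyte chemokine, was at 120 and 83.2 CPM, with 77.0% of its Ctrl UMIs in 1 cell. Its log2 ratio was -0.52, and 1.51 without cells rich in markers of other types.

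Of 7 tested NF-kB and adhesion genes 3 were at least 2-fold higher in AD Myh11 cells (background 4.81%) and 1 was lower (background 6.5%), and in Myh11-rich cells 2 of 5 were higher (background 4.43%) and 1 lower (background 7.45%). Nfkbia, the inhibitor that NF-kB itself induces (GRCm38 chr12:55489410-55492647, minus strand), was at 844 CPM in Ctrl and 2775 in AD (log2 ratio 1.72, 1.61 to 1.82) and at a ratio of 1.33 in Myh11-rich cells. Its thinned share was 51.2% of Ctrl and 77.1% of AD Myh11 cells. Nfkbia was also higher in fibroblasts (1619 and 3418 CPM) and endothelial cells (2738 and 6554 CPM). Tnfaip3, another induced inhibitor of the pathway, was at 129 and 334 CPM (1.36, and 1.10 in Myh11-rich cells), and Icam1, which leukocytes use to adhere, at 33.6 and 119 CPM (1.79, and 0.45 in Myh11-rich cells). The direction of Icam1 turned with the rule applied after thinning (-0.32) and with free RNA subtracted (-4.56). The lower gene was Bcam, a laminin receptor, at 337 and 103 CPM (-1.70, -2.05 to -1.39), found in 74.8% of Ctrl and 41.5% of AD Myh11 cells.

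None of 11 tested cytokine receptor and JAK-STAT genes passed 2-fold, near the shares over all genes tested (4.81% higher and 6.5% lower). Socs3, the feedback inhibitor induced by STAT3, was the nearest, at 508 CPM in Ctrl and 1015 in AD (log2 ratio 1.00, 0.85 to 1.15, just under the threshold), and it was found in 82.0% and 96.2% of Myh11 cells. In fibroblasts Socs3 was at 522 and 2643 CPM. The levels of Jak1 (233 and 257 CPM) and Stat3 (352 and 335 CPM) were close. The shared receptor chain of the IL-6 family, Il6st, was at 295 and 470 CPM (0.67), and Osmr, the oncostatin M receptor, at 145 and 199 CPM (0.46).

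Of 8 tested interferon and MHC class I genes 1 was at least 2-fold higher and 1 lower, near the shares over all genes tested (4.81% and 6.5%). In Myh11-rich cells none of 7 was higher (background 4.43%) and 2 were lower (background 7.45%). The median log2 ratio of the list was 0.56 in Myh11 cells and -0.23 in Myh11-rich cells. In Myh11 cells the higher gene was the class I heavy chain H2-D1 at 223 and 462 CPM (1.05, 0.03 in Myh11-rich cells, and -0.087 with the rule applied after thinning). The lower gene was the interferon-induced Isg15 at 91.3 and 35.9 CPM (-1.32, and -1.42 in Myh11-rich cells). The vitamin D receptor gene Vdr, whose product binds MC903, was at 12.1 and 31.8 CPM and under the level tested. Its induced target Cyp24a1, which degrades vitamin D, had no UMI in Ctrl and 89.3 CPM in AD (at least 34.5-fold higher), but 90.8% of those UMIs lay in 1 cell. Kept cells outside the mural class had 0.193 and 194 CPM of Cyp24a1.

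**Figure D5:**
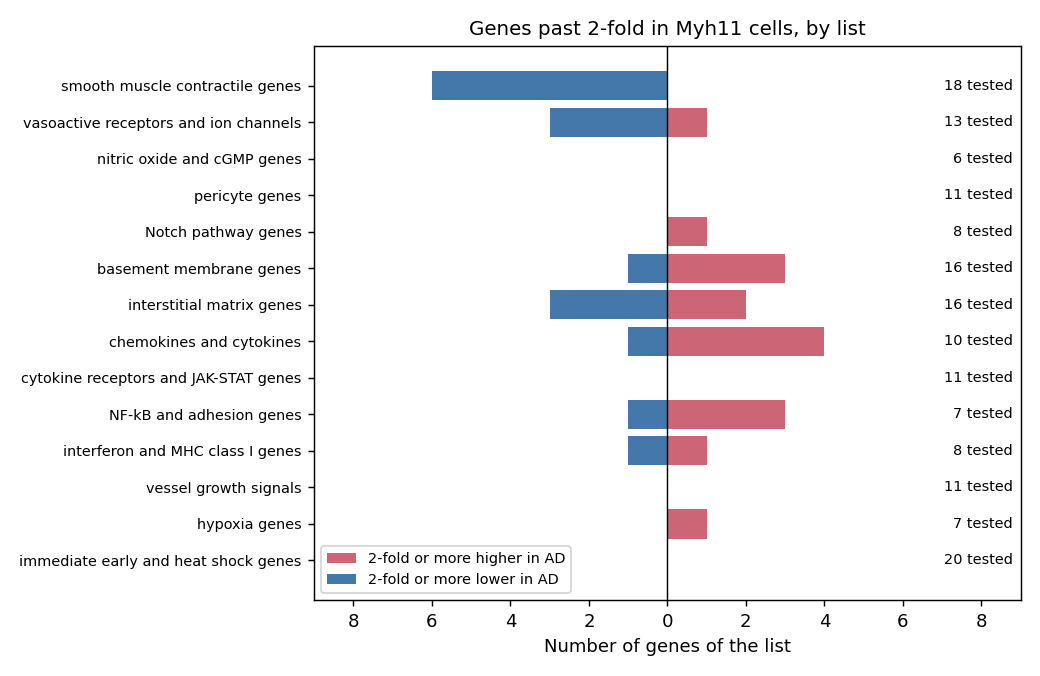
Number of genes at least 2-fold higher (right) and at least 2-fold lower (left) in AD Myh11 cells for each gene list, beside the number tested. The contractile list has 6 lower and none higher of 18, the chemokine list has 4 higher and 1 lower of 10, and the immediate early and heat shock list has none of 20.

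The pericyte-like cells were few, and a level of 101 CPM in Ctrl stands for 3 UMIs, so their ratios have wide intervals. Of 4508 genes tested, 21.3% were at least 2-fold higher and 30.8% at least 2-fold lower in AD, and the median log2 ratio was -0.23. Of 11 tested pericyte genes outside the rule 4 were at least 2-fold lower and 1 was higher, shares near that background. Vtn, which encodes the adhesion protein vitronectin, rested on 11 UMIs in each library, at 371 CPM in Ctrl and 45.3 in AD (log2 ratio -3.01, -4.38 to -1.69), while Pdgfrb was at 1114 and 771 CPM (-0.53, -1.07 to 0.05). Of 12 tested contractile genes 9 were lower (background 30.8%), with a median log2 ratio of -1.73. The 1 higher gene, Tagln, had no Ctrl UMI in these cells. In Ctrl 2 UMIs, or 67.5 CPM, reach the level tested, so a gene can enter through a few Ctrl UMIs and then count as lower. The background shares this limit. Acta2 had no UMI in 7 of the 10 Ctrl cells and 8 UMIs in the highest. In the cytokine receptor and JAK-STAT list 5 of 15 genes were higher and 2 lower, and Socs3 was at 270 and 1368 CPM (2.34, 1.35 to 3.56). Of the 5 higher, Ifnar1 had no Ctrl UMI and fell short of 2-fold against a limit of 3 Ctrl UMIs. Among NF-kB and adhesion genes 4 of 7 were higher and 1 lower, with Tnfaip3 at 270 and 672 CPM (1.31, 0.30 to 2.55).

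Markers of other cells also differed between the libraries in these cells. Adipocyte markers summed to 0 in Ctrl and 3479 CPM in AD, and 99.4% of the AD UMIs of Cfd lay in 1 cell. With 1 CPM added, 4 of 4 tested were at least 2-fold higher (background 21.3%). Against a limit of 101 CPM for genes without a Ctrl UMI, Cfd (at least 27.9-fold) and Car3 (at least 2.2-fold) stayed past 2-fold. Cidec and Plin4 fell short of 2-fold against that limit. Keratinocyte markers summed to 642 and 28.9 CPM, with 5 of 5 tested lower (background 30.8%). Of these, Krt5 and Krt15 rested on 2 Ctrl UMIs each, too few to tell from 0. Fibroblast markers summed to 4187 and 2444 CPM, with 4 of 7 lower (background 30.8%) and 1 higher (background 21.3%). The part of such RNA in the other values of pericyte-like cells was not tested.

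Lox was higher in pericyte-like cells as in Myh11 cells, at 203 CPM in Ctrl, from 6 UMIs, and 993 CPM in AD (log2 ratio 2.29, 1.15 to 3.75). The chemokines were 3 higher and 4 lower of 11 tested, near the shares over all genes (21.3% and 30.8%). Cxcl12, a chemokine that pericytes and other stromal cells secrete, had 22 UMIs in the 10 Ctrl cells and 4 UMIs in the 31 AD cells, at 743 and 16.5 CPM (-5.41, -7.49 to -3.94). Igfbp5 was scarce, with 11 UMIs in Ctrl and 7 in AD (371 and 28.8 CPM, -3.64). Il6 was at 2094 CPM in Ctrl and 1092 in AD (-0.94), the direction opposite to that in Myh11 cells, but 45.2% of the Ctrl UMIs lay in 1 cell and the difference between the classes was not tested.

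Vessel growth signals and stress genes held none past 2-fold in Myh11 cells (background 4.81% higher and 6.5% lower). Of 11 tested vessel growth signals, Pdgfa, a platelet-derived growth factor, was at 358 CPM in Ctrl and 554 in AD, while Angpt2, a ligand of the endothelial receptor Tie2, was at 105 and 169 CPM. The 20 immediate early and heat shock genes are often induced by the dissociation of tissue. Fos was at 3311 and 3437 CPM and Hspa1a at 1222 and 1020 CPM. In pericyte-like cells, by contrast, 9 of these 20 were at least 2-fold lower in AD (background 30.8%) and none was higher (background 21.3%). Hspa1a was at 8881 and 1760 CPM there, with 50.6% of the Ctrl UMIs in 1 cell. Of 7 tested hypoxia genes 1 was higher in Myh11 cells (background 4.81%), the mitophagy gene Bnip3 at 19.8 and 79.0 CPM, with 48.1% in 1 AD cell, and it was under 2-fold in Myh11-rich cells (0.81). In pericyte-like cells 5 of 10 tested hypoxia genes were higher (background 21.3%) and 2 lower (background 30.8%), with a median log2 ratio of 0.84. Against a limit of 3 Ctrl UMIs, Bnip3 was at least 4.11-fold higher there, while Pgk1 and Egln1 fell short of 2-fold. The single tested cell cycle gene in Myh11 cells, Pcna, was at 139 and 160 CPM.

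Markers of other cells were also summed in Myh11 cells. Keratinocyte markers summed to 511 CPM in Ctrl and 499 CPM in AD, adipocyte markers to 83.6 and 227 CPM, with 94.7% of the AD UMIs of Cfd in 1 cell, and dermal sheath markers to 20.7 and 38.0 CPM. The Schwann cell markers summed to 208 and 9.24 CPM. The melanocyte markers summed to 35.3 CPM in Ctrl and had no UMI in AD, the skeletal muscle markers to 11.2 and 3.08 CPM, and the erythroid markers to 50.8 and 31.8 CPM. Of 10 endothelial markers only Flt1 (a VEGF receptor) reached the level tested, at 31.0 and 190 CPM (2.58).

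Smooth muscle of the arrector pili, which raises the hair, also carries Myh11 and could fall under the rule. Itga8, an integrin of that muscle which vascular smooth muscle also carries, was found in 156 of 206 Ctrl (75.7%) and 60 of 106 AD Myh11 cells (56.6%). Of the 4 arrector pili markers tested, 3 were at least 2-fold lower in AD (background 6.5%), and 2 of 4 in Myh11-rich cells (background 7.45%). The 3 were Actg2, Npnt (54.3 and 4.11 CPM) and Hspb6 (64.6 and 26.7 CPM). Itga8 was at 376 and 206 CPM (-0.86). How much a different mix of muscle cells adds to the lower Actg2 and Cnn1 was not tested.

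Over all mural cells together, 264 of 3942 tested genes were at least 2-fold higher (6.7%) and 341 at least 2-fold lower (8.65%) in AD. The 10 lowest were Krt77, Calm4, Krt10, Krtdap, Pi16, Cst6, Lum, Krt15, Igfbp6 and Dmkn, genes of epidermis and fibroblasts. Of their Ctrl mural UMIs, between 57.5% (Krt15) and 99.1% (Krt77) lay in the 34 low-Myh11 cells described above, apart from Igfbp6 with 46 of 92 UMIs there, and 20.7% to 49.2% lay in 1 cell. The 10 highest were Hp, Cfd, Spp1, Dusp2, Ccl4, Lrg1, Ednrb, Cxcl2, Cp and Ifitm1. Cp (ceruloplasmin, a copper-carrying ferroxidase) was at 29.3 CPM in Ctrl and 268 in AD Myh11 cells (3.15), and Ifitm1, an interferon-induced membrane protein, at 66.4 and 682 CPM (3.34). Both were closer in Myh11-rich cells, with log2 ratios of 0.97 and 1.88. Within all low-Myh11 cells the 5 highest genes were Hp, Cfd, Spp1, Lrg1 and Lcn2, and the 5 lowest were the epidermal genes Krt77, Calm4, Flg, Dmkn and Krt1, each of them without a UMI in 1 of the libraries. Endothelial cells had 867 and 1006 CPM of Cp.

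Myh11 cells and low-Myh11 cells differed within each library, as the split fixes in part, so these values are a description. Among the 10 genes most in favour of Myh11 cells, Rergl stood at 240 CPM in Ctrl and 198 in AD, Myom1, which links myosin filaments, at 352 and 145 CPM, and Myocd at 154 and 141 CPM. These 3, with Kcnab1, Map3k7cl and Xirp1, had no UMI in low-Myh11 cells of either library. Sorbs2, Pln and Olfml2a were also among them. Of these genes, Olfml2a, at 272 CPM in Ctrl and 58.5 in AD Myh11 cells (log2 ratio -2.20), and Myom1 (-1.27, and -0.61 in Myh11-rich cells) were also lower in AD. The 10 genes most in favour of all low-Myh11 cells were Igf1, Sphk1, Ccdc80, Retreg1, Vdr, Steap4, Htra3, Rhou, Enc1 and Ppa1. The Ctrl values of these genes rest on all 34 low-Myh11 cells. Of these, 14 held at least 2% of keratinocyte, fibroblast and adipocyte markers together. In the 10 pericyte-like cells of Ctrl, Igf1, Sphk1, Vdr, Rhou and Ppa1 had no UMI, while Steap4 was at 439 CPM. Igf1, an insulin-like growth factor, and Ccdc80 are also genes of fibroblasts, and Steap4 is a metalloreductase of pericytes.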

How the data were processed

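The deposited files held whole-number counts of UMIs per gene and cell barcode, which the authors made with Cell Ranger on the mouse genome mm10 (version 5.0.0 per the file headers, 3.1.0 per the submitters' processing notes). From these counts, cells were filtered and mural cells chosen as stated above. The UMIs of each class were added up per library and expressed as CPM, with exact Poisson intervals, and the log2 ratio of AD over Ctrl (1 CPM added) has the conditional binomial 95% interval. These intervals cover counting error only, and no statistical test was run because each group was 1 library. Genes reaching 50 CPM in 1 or both libraries were called tested, which here means compared with a ratio of 2-fold, leaving out the genes of the rule and gates. Thinned shares drew 1000 UMIs per cell, leaving out shallower cells. Members and gene lists were chosen with earlier results of these data known. Named genes were those of the lists, the 10 highest and 10 lowest ratios in all mural cells, the 5 highest and 5 lowest in Myh11 and in low-Myh11 cells, and the 10 genes most in favour of either class, each with a UMI in at least 10% of the cells, apart from genes not reported here. The cell groups with at least 10 rule UMIs and at least 20 Myh11 UMIs were chosen after the data were seen. Doublets were kept, since the caller Scrublet (in scanpy 1.11.5) marked 3.47% of Ctrl and 0% of AD cells. The statistics, written in Python 3.11.15, were tested on simulated data. The simulation drew Poisson counts for the summed class, the model that the intervals assume, without spread between cells. It therefore does not test the intervals of genes with many UMIs in 1 cell.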

Additional observations from a re-analysis of the deposited data

How the results depend on the processing

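No paired analysis was possible because each group was 1 library. The share of Myh11 cells in Ctrl was 92.8% at 5 or more rule UMIs, 95.3% at 10 or more, 91.0% without cells rich in markers of other types, 79.7% with 1 UMI of each gate gene allowed and 92.5% at 1 or more Myh11 UMIs. In AD it was 62.1% with the rule applied after thinning, 78.1% at 1 or more and 58.3% at 4 or more Myh11 UMIs. Mural cells were 2.47% of Ctrl cells with 1 gate UMI allowed, and 3.92% in Ctrl and 1.99% in AD without cells rich in markers of other types. With a floor of 100 CPM, 164 genes were at least 2-fold higher and 143 lower over all mural cells, and 105 higher and 112 lower in Myh11 cells. With no floor the counts were 1362 and 2878, and 1971 and 2348. Averaging the ratios of the 2 classes gave 459 higher. In Myh11 cells the direction turned for Lamb1 (-0.016 with the rule applied after thinning to 2000 UMIs, -0.36 in Myh11-rich cells), Ccl11 (-1.47 in Myh11-rich cells), Cxcl10 (-1.39 and -1.22), Icam1 (-0.32 after thinning, -4.56 with free RNA subtracted) and H2-D1 (-0.087 after thinning). Leaving out the top doublet scores took Ccl4 to 0.60 over all mural cells and 0.48 in Myh11 cells, and thinning took Col4a1 to 0.71, Col4a2 to 0.68 and Cxcl1 to 0.89. The Ccl2 ratio turned to 1.51 without cells rich in markers of other types and to 1.45 without the top doublet scores, and that of Tagln to 0.33 after thinning and 0.21 with free RNA subtracted. The cause of these changes was not tested. Of 73 named ratios, all kept their call, or stayed within the counting interval where not called, without the cell filter, 72 at 10 or more rule UMIs and 71 with 10 CPM added, but 51 with the rule applied after thinning (8 fell under 2-fold and 4 turned). Of the 53 in Myh11 cells, 33 did so in Myh11-rich cells and 37 with free RNA subtracted. Subtracting free RNA was not usable over all mural cells, where the Ctrl estimate was 93.9%, and was run in Myh11 cells, with 6.48% in Ctrl and 26.5% in AD. Pericyte-like cells of Ctrl held 29615 UMIs, so 3 UMIs there are 101 CPM, and lower levels cannot be told from 0. Leaving out called doublets was not run, since none was called in AD. The settings of 10 or more rule UMIs, markers of other types, doublet scores, 20 or more Myh11 UMIs and free RNA in Myh11 cells were chosen after seeing the data.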
